A study of Mus musculus with 4 samples.

Results

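The genes described here are 10 that mark or maintain the undifferentiated spermatogonia of the mouse testis, the stem and progenitor cells from which sperm are made. They were chosen by name from the 23980 genes of the deposited table, though with earlier results of these data known. The 10 are Gfra1, Ret, Id4, Etv5, Zbtb16, Nanos2, Nanos3, Neurog3, Lin28a and Sall4. All 10 were listed with values in every library. Spermatogonial stem cells divide in the basal part of the seminiferous tubule, where Sertoli cells supply the ligand GDNF, which binds the co-receptor GFRA1 and signals through the receptor tyrosine kinase RET. Transcription factors such as ETV5 and ID4 and the RNA-binding protein NANOS2 are associated with self-renewal, whereas NANOS3, NEUROG3, LIN28A and SALL4 are typical of, or shared with, progenitors that are on the way to differentiation. Most of these genes are turned down before the cells enter meiosis.

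PolyA(+) RNA was sequenced from leptotene/zygotene (L/Z) spermatocytes, germ cells in early meiotic prophase, which had been sorted by FACS from mice of 3 to 4 weeks. All animals were F1 hybrids between the strains C57BL6/J (as the labels spell it) and MSM/Ms. There were 4 libraries, of a Dnmt3L heterozygote, a Pld6 WT, a Pld6 KO and a Dnmt3L KO. Pld6 encodes a nuclease needed to make piRNAs, and Dnmt3l encodes a cofactor of the de novo DNA methyltransferases of the male germ line. Control replicate 1 is the Dnmt3L heterozygote, called the heterozygous control below, and control replicate 2 is the Pld6 WT, called the WT control. Each mutant had 1 library, so no mutant value had a replicate. The heterozygous control carries a Dnmt3l mutation itself, and how many animals went into a library is not given in the sources used here. Both mutations are constitutive, and germ cells of both mutants are lost around the zygotene stage, so the mutant testes hold spermatogonia and early spermatocytes but few later germ cells. The question asked of these genes was how much RNA of undifferentiated spermatogonia each sorted fraction held, and whether it differed between mutants and controls.

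The knockout labels held for the targeted genes, with Pld6 at 0.334 FPKM in Pld6 KO against 17.2 and 19.5 FPKM in the controls, and Dnmt3l at 0 fragments in the Dnmt3L KO library against 101 and 46 in the controls. FPKM is the number of fragments scaled to the length of the transcript and to the depth of the library. The depth, as fragments in genes, lay between 30439943 (Pld6 KO) and 63875934 (heterozygous control). The 20 L/Z spermatocyte markers had a median of 55.5 to 143 FPKM, so RNA of the labelled cells was present in all libraries, but the fractions also held RNA of other cells. In the Dnmt3L line the median of the L/Z markers was 56.7 FPKM in the heterozygote and 55.5 FPKM in the KO. The median of the spermatid markers was above it in the heterozygote, and that of the Sertoli cell markers in the KO. The median of 15 Sertoli cell markers was high in the Dnmt3L line, at 55.8 FPKM in the heterozygote and 73.6 FPKM in the KO, and low in the Pld6 line, at 2.47 FPKM in the WT and 9.17 FPKM in the KO, and the median of 12 spermatid markers was 81.8 and 14.5 FPKM in the controls (the heterozygote first) against 0.875 in the Pld6 KO and 0.782 in the Dnmt3L KO library. In such bulk samples, a larger share of spermatogonia and more RNA per cell cannot be told apart.

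The 10 genes had intermediate levels in all 4 fractions. Their median was 6.62 FPKM in the heterozygous control, 8.79 in the WT control, 11.7 in Pld6 KO and 9.86 in the Dnmt3L KO, which placed it above 59.6% to 70.5% of all genes. The sum of the 10 levels ran from 78.9 FPKM in the Dnmt3L heterozygote to 124 FPKM in the Pld6 KO library. The most abundant of the 10 was Id4 in the Dnmt3L heterozygote, Lin28a in both libraries of the Pld6 line and Etv5 in the Dnmt3L KO library. Nanos2 and Neurog3 were the scarcest, with 1 or the other at the bottom in every library. The Pld6 KO library held the highest value of 5 of the genes and the Dnmt3L heterozygote the lowest value of 6. The shares of all genes with their highest or lowest value in these libraries were not counted.

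**Figure D1:**
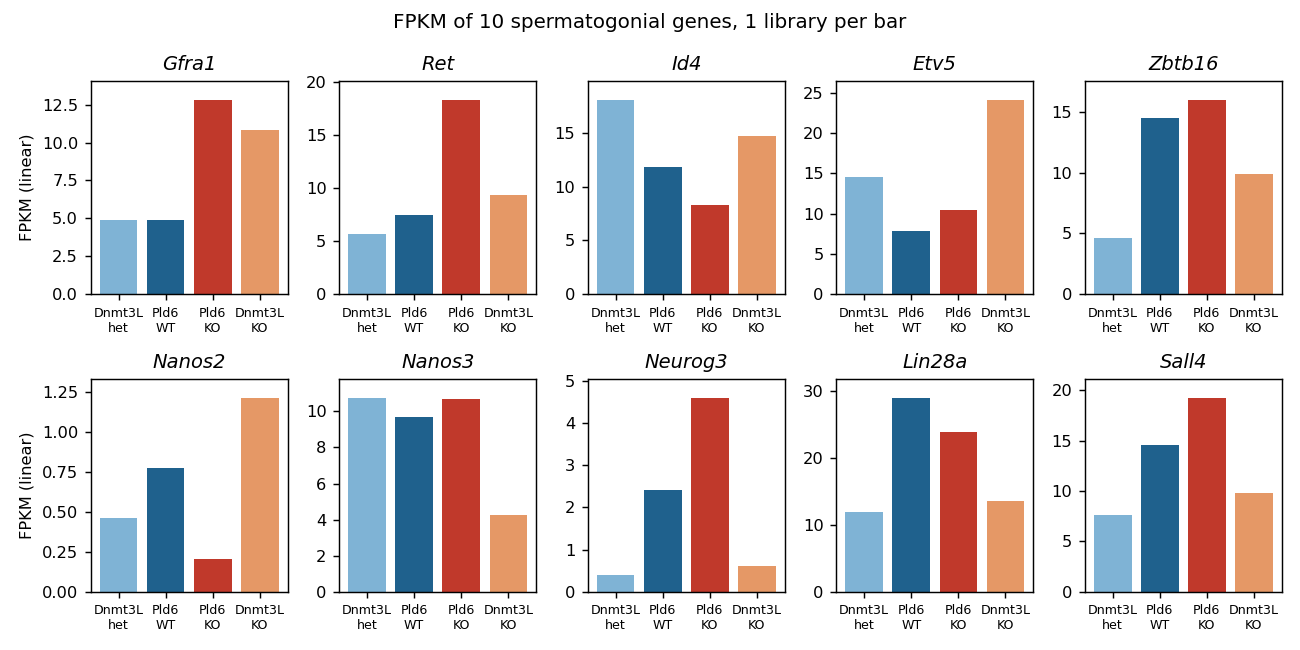
Level of each gene in FPKM on a linear axis that starts at 0, in 1 panel per gene with its own scale; each bar is 1 library (Dnmt3L heterozygote, Pld6 WT, Pld6 KO, Dnmt3L KO), so there are no error bars. Gfra1 stood at 4.87 and 4.89 FPKM in the controls and at 12.8 and 10.8 FPKM in the mutants.

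A gene was called higher or lower in a mutant if FPKM + 1 exceeded both controls more than 2-fold or fell short of both by as much, and its change is given as log2 of (FPKM + 1) over (mean control FPKM + 1), a scale that understates the change of low genes. In the Pld6 KO library 2 of the 10 genes were higher, Gfra1 and Ret, as were 1.04% of all genes and 1.51% of those with a mean of at least 1 FPKM. None (0) was lower, as were 5.41% and 8.57% of these genes. In the Dnmt3L KO library 1 was higher, Gfra1 (2.14% of all genes, 3.29% with a mean of at least 1 FPKM), and 1 was lower, Nanos3 (5.78% and 9.16%). The median change of the 10 amounted to 0.45 for Pld6 KO and 0.01 for Dnmt3L KO, beside -0.05 and -0.02 over all genes with a mean of at least 1 FPKM. Between the controls themselves 3 of the 10 were more than 2-fold apart, against 14.8% of all genes and 23.7% of those with a mean of at least 1 FPKM. Without control replicate 2 the called genes in Pld6 KO came to 6 (5 higher, 1 lower, beside 5.55% and 13.4% of all genes), and without control replicate 1 those in Dnmt3L KO came to 5 (2 higher, 3 lower, beside 12.1% and 8.75% of all genes). Which genes were apart depended on the scaling. The 3 genes that were apart in FPKM (Zbtb16, Neurog3 and Lin28a) were higher in the WT control. Another 3 genes were apart after scaling to the L/Z markers, a choice made with the values known. These (Id4, Etv5 and Nanos3) were all higher in the heterozygous control. That scaling divided every gene by 1.72 in the WT control and by 0.836 in the heterozygous control. It thus raised all genes of the heterozygous control against the WT control. The share of all genes apart was not counted on that scale.

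The genes called higher were both GDNF receptor genes. Gfra1, the co-receptor that binds GDNF (chromosome 19, 58235581 to 58455946, GRCm38.p6, the coordinates of mm10), measured 4.87 FPKM (1350 fragments) in the heterozygous control, 4.89 (845 fragments) in the WT control, 12.8 (1746 fragments) in Pld6 KO and 10.8 (2187 fragments) in the Dnmt3L KO. The controls were nearly equal and both mutants lay above them. Its change came to 1.23 for Pld6 KO and 1.01 for Dnmt3L KO. On the FPKM + 1 scale the mutants exceeded the higher control 2.34-fold and 2.01-fold, so that the Dnmt3L KO value lay just inside the 2-fold rule. A lncRNA and a predicted protein-coding gene overlap Gfra1, and the strand setting of the counting is not given in the sources used here, so reads from overlapping transcripts could not be separated.

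Ret, the signalling receptor of the same complex (chromosome 6, 118151748 to 118197744), measured 5.65 FPKM in the heterozygous control, 7.50 in the WT control, 18.3 in Pld6 KO and 9.35 in the Dnmt3L KO. Both mutants were above both controls, the Dnmt3L KO only by 1.22-fold over the higher control on the FPKM + 1 scale. The change amounted to 1.35 for Pld6 KO and 0.45 for Dnmt3L KO. Gfra1 and Ret were the only ones of the 10 above both controls in both mutants, and 0 were below both. Of all genes 11.5% were above and 17.9% below. With CPM (fragments scaled to the total of the library) and TMM normalization these 2 genes again were alone in this. With every library scaled to its L/Z markers, an alternative chosen after the values had been seen, Zbtb16, Lin28a and Sall4 joined to make 5. The share of all genes above both controls in both mutants was not counted on that scale. That scaling set Gfra1 at 5.83 and 2.85 in the controls, 11.9 in Pld6 KO and 17.1 in the Dnmt3L KO, so that the near equality of the controls holds in FPKM but not there.

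The ratio of Gfra1 to Ret within a library, which no scaling between libraries can change, was 0.862 in the heterozygous control, 0.653 in the WT control, 0.699 in Pld6 KO and 1.16 in the Dnmt3L KO. The Pld6 KO and its WT were close in this ratio, and the Dnmt3L KO had the highest. Gdnf, the ligand, measured 1.87 FPKM in the heterozygous control, 0.141 in the WT control, 0.973 in Pld6 KO and 4.37 in the Dnmt3L KO. It was named here after its values were seen. The order of Gdnf over the libraries was that of the medians of the Sertoli cell and macrophage markers, not that of its receptors.

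The test that set each mutant against the 2 controls, which differ in genotype and line, called none of these differences. It shares its estimate of the spread between genes. Gfra1 was at 21.1 CPM in the heterozygous control and 20.8 in the WT control, so the SE given for Gfra1 rests largely on other genes. In the quasi-likelihood test of edgeR, adjusted over all genes after Benjamini and Hochberg, in which the 2 controls supply the residual degree of freedom (1 in number), 0 of 18657 genes had an adjusted p under 0.05 for either mutant, which is 0% of all genes, and 0 of the 10 genes reached an unadjusted p of 0.05. At that unadjusted p, 102 genes of the table were higher and 1383 lower for Pld6 KO, and 203 and 1440 for Dnmt3L KO. The fitted log2 change of Gfra1 was 1.35 (SE 0.64, adjusted p = 0.741) for Pld6 KO and 1.13 (SE 0.64, adjusted p = 0.777) for Dnmt3L KO. For Ret it was 1.44 (SE 0.60, adjusted p = 0.643) for Pld6 KO and 0.51 (SE 0.61, adjusted p = 0.942) for Dnmt3L KO. DESeq2, which called 964 genes (5.19%) in Pld6 KO and 942 (5.41%) in Dnmt3L KO, called 0 of the 10, as did edgeR without the filter on low counts, which called 437 (2.12%) and 429 (2.09%) genes.

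Further fits were chosen after the values had been seen. With both mutants as 1 group against both controls, edgeR called 0 of 17686 genes (0%, with 128 higher and 1548 lower at an unadjusted p of 0.05), and Gfra1 had a fitted log2 change of 1.25 (SE 0.38, unadjusted p = 0.0228, adjusted p = 0.320). With the mouse line (Pld6 or Dnmt3L) as a further term, which leaves 1 residual degree of freedom, the same edgeR contrast called 131 genes higher (0.741%) and 1058 lower (5.98%). Gfra1 was among the higher genes with 1.25 (SE 0.28, adjusted p = 0.0425), and Ret was not, with 0.99 (SE 0.26, adjusted p = 0.0753). Of the edgeR and DESeq2 fits made, that with line as a term is the only one that called Gfra1. In this design the 2 mutants stand for 2 different mutations and not for replicates of 1.

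**Figure D2:**
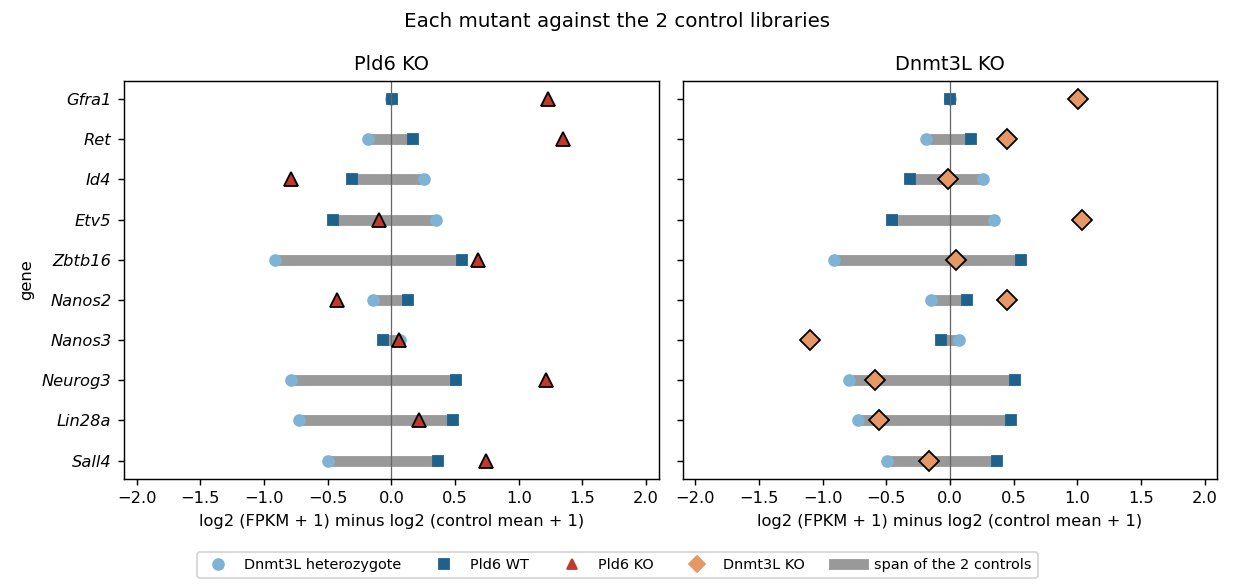
Log2 (FPKM + 1) of each library minus log2 (mean of the controls + 1), for Pld6 KO in the left panel and Dnmt3L KO in the right; small symbols are the 2 controls, the grey bar is the span between them and the large symbol is the mutant. Gfra1 had almost no span between controls and changes of 1.23 and 1.01, whereas the spans of Zbtb16, Neurog3 and Lin28a were more than 2-fold wide.

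Promoters are shown for the called genes that had a sequence, and for the genes with the fewest and the most CpG sites, which were not called. The reason to show them is that Dnmt3L KO animals lack a cofactor of DNA methylation, which acts on CpG sites. DNA methylation itself was not analysed here. The windows run from 250 bases before to 50 after a RefSeq start site on GRCm38.p6 and are printed 5′ to 3′ on the strand of the gene, with CpG sites in capitals. The table held 8 windows for 7 of the 10 genes, and those of Ret, Zbtb16 and Sall4 were not among them. The 4 printed here are those of Gfra1 (minus strand, chr19:58455349-58455648), higher in both mutants, Nanos3 (minus strand, chr8:84176503-84176802), lower in Dnmt3L KO, Nanos2 (plus strand, chr7:18987274-18987573), the only one without a CpG site, and Id4 (plus strand, chr13:48260866-48261165), the one with the most.
Gfra1: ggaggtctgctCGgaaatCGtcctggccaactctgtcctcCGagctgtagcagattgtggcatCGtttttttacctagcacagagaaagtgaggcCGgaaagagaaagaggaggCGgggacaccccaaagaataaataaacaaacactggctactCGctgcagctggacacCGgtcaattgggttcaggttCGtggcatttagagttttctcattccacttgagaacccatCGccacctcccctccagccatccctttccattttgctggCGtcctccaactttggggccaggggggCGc
Nanos3: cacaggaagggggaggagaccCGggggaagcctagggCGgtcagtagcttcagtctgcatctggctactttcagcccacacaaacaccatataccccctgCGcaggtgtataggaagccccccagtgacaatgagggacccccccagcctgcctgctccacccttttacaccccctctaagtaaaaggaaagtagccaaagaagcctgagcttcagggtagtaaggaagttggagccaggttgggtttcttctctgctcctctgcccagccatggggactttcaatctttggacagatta
Nanos2: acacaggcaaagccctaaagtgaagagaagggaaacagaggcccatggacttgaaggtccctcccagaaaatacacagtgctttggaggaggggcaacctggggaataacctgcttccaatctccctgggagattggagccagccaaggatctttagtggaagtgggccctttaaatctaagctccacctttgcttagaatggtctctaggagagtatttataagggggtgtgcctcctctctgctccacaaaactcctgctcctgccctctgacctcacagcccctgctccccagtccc
Id4: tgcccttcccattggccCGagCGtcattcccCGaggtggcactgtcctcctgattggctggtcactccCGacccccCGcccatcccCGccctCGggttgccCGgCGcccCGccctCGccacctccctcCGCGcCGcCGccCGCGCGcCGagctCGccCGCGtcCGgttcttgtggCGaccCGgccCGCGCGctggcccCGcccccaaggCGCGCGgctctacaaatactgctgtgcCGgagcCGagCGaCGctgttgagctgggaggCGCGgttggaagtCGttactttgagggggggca

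The Gfra1 window held 12 CpG sites, the Nanos3 window 3, the Nanos2 window 0 and the Id4 window 39, beside a median of 7 over 32851 promoters of the same length. Windows not printed held 37 and 19 sites at the start sites of Etv5, 19 at Neurog3 and 10 at Lin28a. The 2 genes called in Dnmt3L KO with a window, Gfra1 and Nanos3, thus lay on either side of the median. The Gfra1 and Lin28a windows lie wholly inside the spans given for these genes, as does the second window of Etv5. These windows are thus at internal start sites, and the outermost starts of Gfra1 and Lin28a have no window. The TATA box (TATAAA, either strand) was matched in 1 of the 8 windows, that of Nanos2, at -33 from the start, against 13.6% of all promoters. The E-box (CANNTG) was matched in 4 of the 8 against 72.3% of all promoters, the CCAAT box (CCAAT) in 6 of the 8 against 37.4%, the GC box (GGGCGG) in 4 of the 8 against 35.7%, and the ETS core (CCGGAAG) in 0 against 8.86%. At Gfra1, 1 of the 3 E-box matches overlapped the CCAAT match. These are matches of letters and describe no binding.

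Of the transcription factors of self-renewal, none was called in either mutant in FPKM. Id4, an inhibitor of helix-loop-helix factors that marks the stem cell pool (chromosome 13, 48261116 to 48266028), measured 18.0 FPKM in the heterozygous control, 11.8 in the WT control, 8.24 in Pld6 KO and 14.7 in the Dnmt3L KO. It was lowest in Pld6 KO, with a change of -0.79, and lay between the controls in Dnmt3L KO, with a change of -0.02. A lncRNA overlaps it. Etv5, an ETS factor induced by GDNF in stem cells and also made by Sertoli cells (chromosome 16, 22381313 to 22439570), measured 14.6 FPKM in the heterozygous control, 7.90 in the WT control, 10.4 in Pld6 KO and 24.1 in the Dnmt3L KO. Both libraries of the Dnmt3L line were above both of the Pld6 line. Its change amounted to -0.10 for Pld6 KO and 1.04 for Dnmt3L KO, where it exceeded the higher control 1.61-fold on the FPKM + 1 scale and was not called.

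The level of Etv5 had the same order over the 4 libraries as the Sertoli cell markers. The 15 markers summed to 4128 FPKM in the heterozygous control, 176 in the WT control, 430 in Pld6 KO and 5800 in the Dnmt3L KO. Of the 15, 13 were more than 2-fold apart between the controls, and none was at 0 in any library. This order was not particular to Sertoli cell markers. The median of 9 macrophage markers had it too, at 10.5 FPKM in the heterozygous control, 2.04 in the WT control, 5.88 in Pld6 KO and 17.8 in the Dnmt3L KO. The parts of Sertoli cell and macrophage RNA in the Etv5 values were not tested.

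Zbtb16, also called Plzf, a zinc finger repressor needed to keep the stem cells (chromosome 9, 48651797 to 48836225), measured 4.61 FPKM in the heterozygous control, 14.5 in the WT control, 15.98 in Pld6 KO and 9.92 in the Dnmt3L KO. The controls were more than 2-fold apart while Pld6 KO lay just above the WT control and Dnmt3L KO between the controls. Sall4, a zinc finger factor of the whole undifferentiated pool (chromosome 2, 168748332 to 168767201), measured 7.58 FPKM in the heterozygous control, 14.6 in the WT control, 19.2 in Pld6 KO and 9.80 in the Dnmt3L KO. In FPKM both Pld6 libraries were again above both Dnmt3L libraries. The change in Pld6 KO was 0.68 for Zbtb16 and 0.74 for Sall4, and that in Dnmt3L KO was 0.05 and -0.16. The authors' tool derives FPKM from reads assigned to isoforms, and for Sall4 the ratio of Pld6 KO to the WT control was 1.32 in FPKM but 1.06 in CPM. Each of these genes is overlapped by a predicted gene that the table does not list.

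The NANOS genes, which encode RNA-binding repressors of differentiation, differed from each other. Nanos2, a stem cell gene (chromosome 7, 18987524 to 18988962), measured 0.461 FPKM (37 fragments) in the heterozygous control, 0.774 (39 fragments) in the WT control, 0.204 (8 fragments) in Pld6 KO and 1.21 (71 fragments) in the Dnmt3L KO. Pld6 KO was the lowest and Dnmt3L KO the highest. On the FPKM + 1 scale the changes were -0.43 and 0.45, neither called, while without a pseudocount and with values raised to the level of 3 fragments Nanos2 was called lower in Pld6 KO, at -1.60. The 95% Poisson interval of the 8 fragments was 3.45 to 15.8, and that of the 71 was 55.5 to 89.6. The fitted log2 change in edgeR was -1.64 (SE 1.40, adjusted p = 0.994) for Pld6 KO and 0.95 (SE 1.21, adjusted p = 0.948) for Dnmt3L KO.

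Nanos3, which is carried mainly by progenitors (chromosome 8, 84173733 to 84176552), measured 10.7 FPKM (368 fragments) in the heterozygous control, 9.68 (208 fragments) in the WT control, 10.7 (179 fragments) in Pld6 KO and 4.24 (106 fragments) in the Dnmt3L KO. In FPKM the first 3 libraries were alike and the Dnmt3L KO lay below them, 2.04-fold under the lower control on the FPKM + 1 scale and so just inside the rule. The change was -1.10, and edgeR fitted -1.28 (SE 0.89, adjusted p = 0.848). The call was lost with TMM-normalized CPM, at -0.998, and with scaling to the L/Z markers, at -0.41. The ratio of Nanos3 to Nanos2 was 23.3 in the heterozygous control, 12.5 in the WT control, 52.4 in Pld6 KO and 3.50 in the Dnmt3L KO. This ratio of FPKM was thus highest in 1 mutant and lowest in the other.

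Among the genes of progenitors, Neurog3, a helix-loop-helix factor of cells leaving the stem cell state (chromosome 10, 62133090 to 62134763), measured 0.391 FPKM (34 fragments) in the heterozygous control, 2.42 (132 fragments) in the WT control, 4.60 (195 fragments) in Pld6 KO and 0.599 (38 fragments) in the Dnmt3L KO. The Pld6 line had more than the Dnmt3L line, and within each line the KO had more than the control. The change in Pld6 KO was 1.22, but the level exceeded that of the Pld6 WT only 1.64-fold on the FPKM + 1 scale and was not called. In Dnmt3L KO the change was -0.59. Lin28a, an RNA-binding protein that blocks let-7 processing (chromosome 4, 134003330 to 134019196), measured 12.0 FPKM in the heterozygous control, 29.0 in the WT control, 23.9 in Pld6 KO and 13.6 in the Dnmt3L KO. Both mutants lay between the controls, with changes of 0.21 and -0.56. The ratio of Neurog3 to Gfra1 was 0.0803 in the heterozygous control, 0.495 in the WT control, 0.359 in Pld6 KO and 0.0553 in the Dnmt3L KO. The 2 lines were thus further apart in this ratio than either KO was from the control of its line.

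The libraries of the 2 lines did not overlap in FPKM for 6 of the 10 genes. Zbtb16, Neurog3, Lin28a and Sall4, 4 of these, were higher in both Pld6 libraries than in both Dnmt3L libraries, as were 19.8% of all genes, and Id4 and Etv5 were lower, as were 19.1%. After scaling to the L/Z markers the split was lost for Zbtb16, Lin28a and Sall4 and gained for Nanos2. This left 1 gene (Neurog3) higher and 3 (Id4, Etv5 and Nanos2) lower in the Pld6 line. The shares of all genes were not counted on that scale. Line, sorting and the share of other cells cannot be told apart in these libraries. Compared with the controls, the Pld6 KO was above both for 5 of the genes (26.4% of all genes) and below both for 2 (27.5%), and the Dnmt3L KO was above both for 4 (29.1%) and below both for 1 (28.6%).

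Each mutant was then set against the control of its own line, in CPM with a 95% interval that covers counting error only. For Gfra1 the ratio was 2.75 (2.53 to 2.99) for Pld6 KO and 2.07 (1.94 to 2.22) for Dnmt3L KO. For Ret it was 2.59 (2.46 to 2.73) and 1.54 (1.47 to 1.63). Both receptor genes were thus higher than in the own-line control in both mutants. Markers of other cells also differed from the own-line control. The median own-line log2 change for Pld6 KO was 2.32 for Leydig cell, 1.69 for peritubular and vascular, 1.07 for Sertoli cell and 0.82 for macrophage markers, on the FPKM + 1 scale on which Gfra1 had 1.23. For Dnmt3L KO these medians were 0.23, -0.53, 0.39 and 0.74, beside 1.01 for Gfra1, and those of the L/Z markers were -0.66 in Pld6 KO and -0.35 for Dnmt3L KO. The part of these shifts in the ratios was not tested. For Id4 the ratio was 0.722 (0.636 to 0.819) and 0.764 (0.706 to 0.826), lower in both. For Etv5 it was 1.37 (1.26 to 1.48) and 1.55 (1.48 to 1.62), and for Zbtb16 1.14 (1.08 to 1.20) and 2.01 (1.88 to 2.15), so that within their line both were higher in the KO although they had not been called.

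In the same comparison Nanos3 had ratios of 1.15 (0.933 to 1.41) for Pld6 KO and 0.368 (0.294 to 0.459) for Dnmt3L KO. Nanos2 had 0.273 (0.110 to 0.593) and 2.45 (1.63 to 3.76), on opposite sides of 1. Neurog3 had 1.97 (1.57 to 2.47) and 1.43 (0.876 to 2.34). Lin28a, at 0.857 (0.814 to 0.901) and 1.06 (0.9999 to 1.123), and Sall4, at 1.06 (0.9997 to 1.118) and 1.24 (1.16 to 1.32), differed least from their own-line controls. By the 2-fold rule on FPKM + 1 against the own-line control alone, Pld6 KO had 2 higher genes and 0 lower ones (4.69% and 6.46% of all genes), and Dnmt3L KO had 1 of each (3% and 8.22%), the same genes as with both controls. The median own-line log2 change of the 10 amounted to 0.25 for Pld6 KO and 0.47 for Dnmt3L KO. No spread between animals stands behind these ratios.

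**Figure D3:**
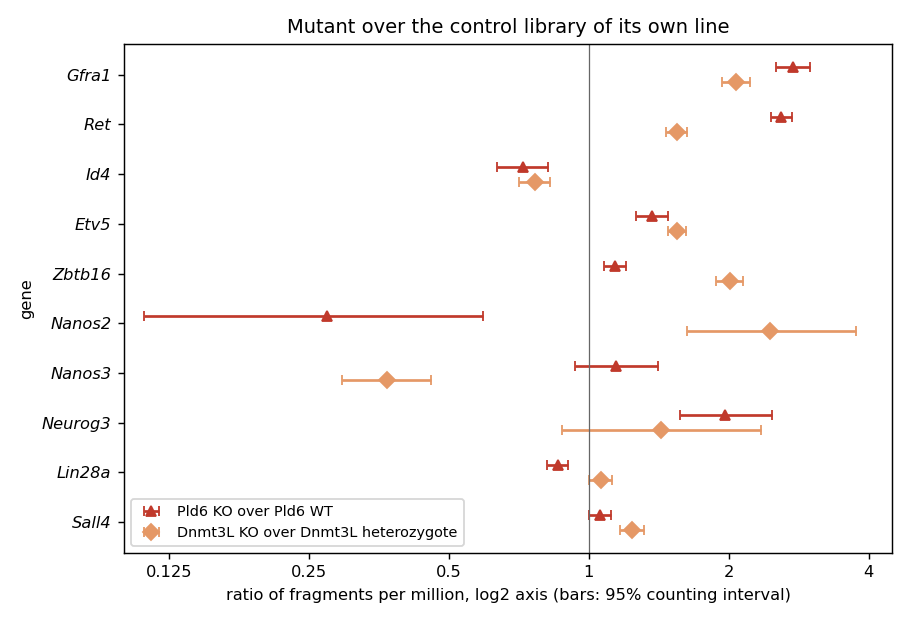
Ratio of CPM in each mutant to the control library of its own line, on a log2 axis; bars are 95% counting intervals and the line marks a ratio of 1. Gfra1 and Ret lay to the right of 1 and Id4 to the left in both mutants, and Nanos2 lay at 0.273 for Pld6 KO and 2.45 for Dnmt3L KO.

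Other genes of the same cells and pathways were counted from lists of known genes. Of 21 other genes of undifferentiated spermatogonia, 1 was higher and 0 lower in Pld6 KO and 1 was higher and 0 lower in Dnmt3L KO, with a median change of 0.48 and -0.26. The higher gene in Pld6 KO was Mcam, a surface adhesion molecule, at 61.0 and 80.1 FPKM in the controls (the heterozygote first here and below) and 179 FPKM in the Pld6 KO library. In Dnmt3L KO it was Itga6, the laminin receptor subunit used to enrich stem cells, at 7.99 and 6.18 FPKM in the controls, with 16.3 FPKM for Pld6 KO and 24.4 FPKM for Dnmt3L KO.

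Of 12 niche ligands and receptors, 2 were higher and 0 lower for Pld6 KO, whereas 1 was higher and 1 lower in Dnmt3L KO. Fgfr1, a receptor for FGF signals, was at 5.65 and 9.02 FPKM in the controls and 22.8 FPKM in the Pld6 KO library. Cxcl12, a chemokine of the niche, was at 8.66 and 4.11 FPKM in the controls and 19.9 FPKM in the Pld6 KO library. Kitl, the Sertoli cell ligand of KIT, was at 15.6 and 1.22 FPKM in the controls, 3.51 FPKM in Pld6 KO and 42.2 FPKM for Dnmt3L KO. It so had the order of the Sertoli cell and macrophage markers given above. Nrtn, a ligand related to GDNF, was at 8.57 and 12.9 FPKM in the controls and 3.73 FPKM in the Dnmt3L KO library.

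Among 15 relatives of the 10 genes, such as the other GFRA co-receptors and Lin28b, and among 8 RNA partners of NANOS and LIN28 proteins, 0 were called in either mutant. The median change of the relatives amounted to 0.16 for Pld6 KO and -0.04 for Dnmt3L KO, and that of the partners 0.11 and 0.04. Of 9 genes of differentiating spermatogonia, 1 was higher and 0 lower in Pld6 KO, namely Kit, the receptor that marks the onset of differentiation, at 16.02 and 40.4 FPKM in the controls and 86.4 FPKM in the Pld6 KO library. In Dnmt3L KO 0 were higher and 1 was lower, Dmrtb1, a regulator of the entry into meiosis, at 92.5 and 83.6 FPKM in the controls and 26.6 FPKM in the Dnmt3L KO library. The median change of this list was 0.23 and -0.37.

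Markers of the cells that a sorted L/Z fraction could hold differed between the libraries, but not all of them with the groups. The medians of the pachytene and spermatid markers were lower in both mutants than in both controls. Those of the L/Z, Sertoli cell, Leydig cell and macrophage markers were split by line instead. Of 20 L/Z markers, 0 were called in Pld6 KO and 2 were lower in Dnmt3L KO (Spo11 and Syce1), with a median change of -0.20 and -1.03. Pachytene markers were lower for 10 of 12 in both mutants, and spermatid markers for 11 of 12 in Pld6 KO and 10 of 12 in Dnmt3L KO. Of 8 Leydig cell markers, 1 was higher in Pld6 KO and 3 in the Dnmt3L KO. Of 9 macrophage markers, 0 were higher in Pld6 KO and 2 in the Dnmt3L KO, of 7 peritubular and vascular markers 2 were higher in Pld6 KO and 0 in the Dnmt3L KO, and of 15 Sertoli cell markers 0 were higher in Pld6 KO and 1 in the Dnmt3L KO. With controls so far apart in these markers (13 of 15 for Sertoli cells) the rule of both controls can call few of them, and the own-line medians given above are the closer description. By that rule none of the Leydig cell, macrophage, peritubular, vascular or Sertoli cell markers was lower in either mutant. Against the own-line control, however, the median log2 change of the peritubular and vascular markers was -0.53 in Dnmt3L KO. The part of these shifts in the levels of Gfra1, Ret and Nanos3 was not tested.

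**Figure D4:**
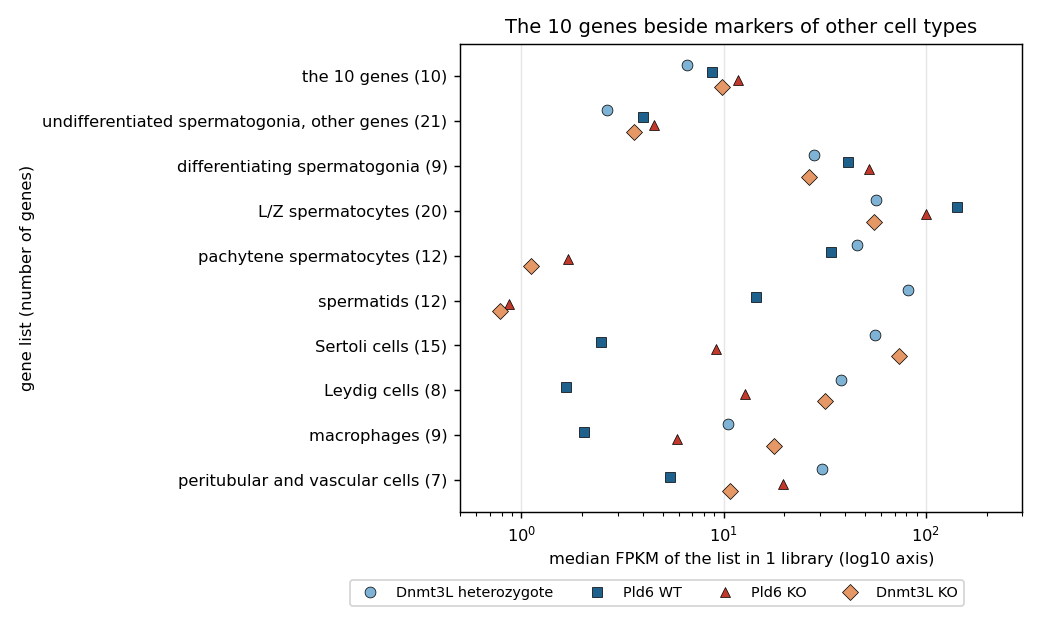
Median FPKM of each gene list in each library, on a log10 axis, with the number of genes of the list in brackets. The 10 genes lay between 6.62 and 11.7 FPKM, while the Sertoli cell markers ran from 2.47 to 73.6 FPKM and the spermatid markers from 0.782 to 81.8 FPKM.

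Genes whose levels ran most alike were found by the distance between log2 (FPKM + 1) values centred over the 4 libraries, which describes these libraries alone. Nearest to Gfra1 was Slc5a3 at a distance of 0.12, measuring 5.27 FPKM in the heterozygous control, 5.67 in the WT control, 12.99 in Pld6 KO and 11.3 in the Dnmt3L KO, followed by Creb3l1 at 0.16. Nearest to Ret were Ptgfrn at 0.10 and Aldh1l2 at 0.11. None of these was on a list used here. For Nanos3 the nearest was Paqr9 at 0.05, for Neurog3 Ccnf at 0.07, for Zbtb16 Nes at 0.03 and for Lin28a Pgm2l1 at 0.02. Etv5 had Irgq and Id4 had Lyrm9, at 0.01 and 0.05, and Sall4 had Atp11a at 0.05. Nanos2 was too scarce for this comparison.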

How the data were processed

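The 10 genes and all gene lists were chosen with earlier results of these data known. PolyA(+) libraries of FACS-sorted L/Z spermatocytes were read as single ends of 50 bases by the authors, aligned with TopHat and quantified with Cuffdiff on mm10, according to the submitters' processing notes, with versions and the strand setting not given in the sources used here. The deposited table gives the fragments of each gene as estimated counts, of which 97.3% to 97.4% were whole, and FPKM, which the authors' tool scaled to length and depth. For 28 genes a value was marked as failed, none of them among the 10. The counted fragments exceed the read numbers that the study's methods give for L/Z libraries, and why was not tested, so intervals from counts may be too narrow. Reads carried no molecular identifiers, and intervals cover counting error only.

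Here, log2 changes were computed on FPKM + 1, and a gene was called at more than 2-fold beyond both controls. Estimated counts were rounded and tested with edgeR 4.0.16 (quasi-likelihood, TMM, filterByExpr, 3 groups, Benjamini-Hochberg adjustment at 0.05, R 4.3.3) and, as an alternative, with DESeq2 1.42.0. P-values of the fits with 3 groups measure the spread between the 2 control libraries, which differ in genotype and line. With both mutants as 1 group, the difference between the mutants enters this spread too. With line as a term, the spread is how far the change from control to mutant differs between the 2 lines. Own-line ratios have exact conditional binomial 95% intervals. Promoters and positions came from RefSeq tables of GRCm38.p6, and scripts were tested on simulated data. Alternatives were other pseudocounts, raising values to 3 fragments, TMM-scaled fragments, a 3-fold threshold, leaving out either control, members with a mean of at least 1 FPKM, and scaling to L/Z markers. All 10 genes were named. From the lists, genes called in either mutant were named, at most 4 per list and mutant by the largest change, and for likeness the nearest genes by distance.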

Additional observations from a re-analysis of the deposited data

Results flagged for a closer look

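Nanos2 differed from the control of its own line in opposite directions in the 2 mutants. In CPM (fragments scaled to the total of the library), the ratio of Pld6 KO to Pld6 WT was 0.273 (95% counting interval 0.110 to 0.593, 8 against 39 fragments), and that of Dnmt3L KO to the Dnmt3L heterozygote was 2.45 (1.63 to 3.76, 71 against 37 fragments). The intervals cover counting error only, each side is 1 library, and the difference between the mutants was not tested. Nanos2 was the only one of the 10 genes with intervals on opposite sides of 1. Intervals that left out 1 were common, however. Those of only 2 of the 10 genes included 1 for Pld6 KO, and those of 2 for Dnmt3L KO. The share of all genes with intervals on opposite sides was not counted. The limit on intervals from counts given with the processing applies here too.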

How the results depend on the processing

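The labels carry no replicate numbers. The mouse line ties each mutant to a control, and line as a term was the paired fit made. Leaving out a control leaves 0 residual degrees of freedom in edgeR, so that no test was made there. Gfra1 and Ret in Pld6 KO and Gfra1 in Dnmt3L KO were called under every pseudocount and scaling tried apart from L/Z markers, with either control alone and with a mean of at least 1 FPKM, but not with the 3-fold threshold, at which 0 of the 10 genes were called in either mutant and 0 were that far apart between the controls. After scaling to L/Z markers, a choice made with the values known, Gfra1 lost its call in Pld6 KO at a change of 1.27 while Neurog3 gained one at 1.45, Ret (1.26) and Etv5 (1.70) gained one in Dnmt3L KO, where 3 genes were then higher and 0 lower, and the median change became 0.72 in Pld6 KO and 0.85 in Dnmt3L KO. With these factors, the 3 genes apart between the controls became 3 others of the opposite direction, and the genes separated by line went from 6 to 4. This scaling also raised the genes above both controls in both mutants from 2 to 5, without a count over all genes to set beside it. With TMM-normalized CPM, called genes in Dnmt3L KO went from 2 to 1. With a mean of at least 1 FPKM the median change in Pld6 KO was 0.68. Leaving out each control in turn gave 2 to 6 called genes in Pld6 KO and 2 to 5 in Dnmt3L KO, with median changes of 0.25 to 1.09 and -0.11 to 0.47. The fit of both mutants as 1 group called 0 of the 10 genes, and 1 (Gfra1) with line as a term. RLE size factors, no filter on low counts and DESeq2 called 0 in either mutant, with 1 unadjusted p under 0.05 for RLE (Ret in Pld6 KO). Beyond the factors of the L/Z scaling, the cause of these shifts was not tested. The limit of all values is 1 library per mutant, and for Nanos2 and Neurog3 also the counts of 8 to 195 fragments.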
